A study of Mus musculus with 24 samples.

Results

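Cholesterol synthesis and sterol handling were described here through 30 genes chosen by symbol from a list of pathway enzymes, sterol sensors and transporters. All 30 were in the wild-type table of 18091 genes and all had a mean of at least 10 normalized counts over the 20 wild-type libraries, as did 12249 genes in all. The cells were primary mouse brain microvascular endothelial cells, which line the capillaries of the brain, from the cortex and midbrain of C57B/6J mice. They were kept in puromycin for 48 h against other cell types, grown on permeable inserts and treated for 24 h in a medium with fatty-acid-free albumin. The 5 groups of 4 libraries were vehicle control, the S1P4 receptor agonist CYM50260 at 500 nM on the apical (blood-facing) side, the same agonist at 500 nM on the basal side, sphingosine-1-phosphate (S1P) at 50 nM on the apical side, and S1P at 50 nM on the basal side. Per the series' design text basal S1P opens the barrier and the other 3 treatments tighten it. Each replicate came from 12 pooled mice and each sample from 3 pooled inserts. The sources used here do not give the mice's age or sex, the side of the vehicle, or whether libraries of 1 number came from the same set of mice. The p-values measure the spread among the libraries of a group. Vehicle-treated S1P4 knockout cells of the same series were not analysed here.

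Cholesterol is built from acetyl-CoA in the endoplasmic reticulum, first to mevalonate and isoprenoids, then to squalene and lanosterol, and from there by removal of methyl groups and shifts of double bonds to cholesterol. When the membrane of that compartment holds little sterol, the escort protein SCAP carries the transcription factor SREBP2 to the Golgi, where it is cut and released to turn on the enzymes; INSIG proteins hold the complex back when sterol is plentiful. Excess sterol activates the LXR nuclear receptors, which raise the exporters ABCA1 and ABCG1. The brain makes its own cholesterol, because the blood-brain barrier keeps plasma lipoproteins out, and brain endothelial cells export sterol through ABC transporters.

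SREBP2 acts on promoters together with the factor NF-Y, whose site is the CCAAT box, so the promoters were read first. RefSeq promoters (GRCm38.p6, the same assembly as mm10) were found for 24 of the 30 genes, and the 250 bases before each annotated start were searched on both strands. The sequence CCAAT was present before 20 of these 24 genes, or 83.3%, against 37.5% of all 27025 genes with a promoter, and 12 of the 20 held at least 2 matches. The sterol regulatory element TCACNCCAC was found in 1 of the 24, Hmgcs1, or 4.2%, against 1.22% of all genes. The LXR element, a direct repeat to which LXR binds, was found in 1 of the 24, Abca1, against 0.707% of all genes. No CCAAT match overlapped either of these elements in Hmgcs1 or Abca1. These matches describe letters and not bound sites. The background of all genes with a promoter was not limited to the 12249 genes tested here, whose share was not taken.

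The promoters below are those of some of the enzymes and of the exporter named in later results, with Mvk added for its spacing. Fdft1, Fdps and Sqle, which also recur in those results, were not among the 20 genes with a CCAAT match and are not printed. For each of them either no match or no promoter was found. They run 5′ to 3′ toward the gene and end at the base before the annotated start. Capitals mark CCAAT or its reverse complement ATTGG, the sterol regulatory element of Hmgcs1 and the LXR element of Abca1.
Hmgcs1, chr13:119690101-119690350, plus strand: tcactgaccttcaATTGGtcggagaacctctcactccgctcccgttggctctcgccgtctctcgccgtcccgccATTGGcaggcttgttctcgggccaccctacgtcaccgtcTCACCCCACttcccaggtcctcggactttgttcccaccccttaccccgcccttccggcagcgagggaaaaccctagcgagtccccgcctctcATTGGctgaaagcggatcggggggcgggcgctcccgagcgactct
Mvk, chr5:114444069-114444268, plus strand: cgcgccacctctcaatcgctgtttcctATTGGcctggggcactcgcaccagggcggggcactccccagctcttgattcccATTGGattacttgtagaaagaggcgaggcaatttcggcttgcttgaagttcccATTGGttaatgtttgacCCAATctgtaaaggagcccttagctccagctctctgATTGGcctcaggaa
Msmo1, chr8:64733579-64733758, minus strand: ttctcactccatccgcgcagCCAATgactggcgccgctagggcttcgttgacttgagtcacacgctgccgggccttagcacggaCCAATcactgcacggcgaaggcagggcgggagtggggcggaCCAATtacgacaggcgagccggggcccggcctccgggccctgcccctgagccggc
Dhcr7, chr7:143830104-143830213, plus strand: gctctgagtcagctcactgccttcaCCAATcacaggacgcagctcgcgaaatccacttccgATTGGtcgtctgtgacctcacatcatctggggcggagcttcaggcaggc
Lss, chr10:76531505-76531604, plus strand: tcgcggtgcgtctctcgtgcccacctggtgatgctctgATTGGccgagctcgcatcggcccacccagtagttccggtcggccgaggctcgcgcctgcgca
Cyp51, chr5:4104698-4104797, minus strand: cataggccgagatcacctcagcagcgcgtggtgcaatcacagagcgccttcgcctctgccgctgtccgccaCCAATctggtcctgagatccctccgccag
Abca1, chr4:53159896-53159995, minus strand: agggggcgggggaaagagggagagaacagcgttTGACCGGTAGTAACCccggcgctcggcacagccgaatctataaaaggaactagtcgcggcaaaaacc

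Hmgcs1, which encodes the synthase that makes HMG-CoA, held the sterol element between bases -137 and -129 and 3 CCAAT matches around it. Mvk, the kinase of mevalonate, held 4 matches on the same strand at equal steps of 53 bases and 1 more on the other. Msmo1, which removes methyl groups from sterols, held 3 matches in the same orientation.

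Total normalized counts per library were 4.49 to 4.72 M, and 1009 to 1952 genes were at 0 in a library. The 12 endothelial markers were all present, at summed levels of 21856 to 26355 normalized counts. Of the 11 pericyte markers 9 had a mean of at least 10, and their sums ran from 304 to 3152. The 8 smooth muscle markers were all present, with sums of 3452 to 4939. Of the 7 fibroblast markers Lum and Dpt were not in the table used here, and the sums of the other 5 ran from 84 to 841. Microglial markers summed to 0 to 30. Of the 6 oligodendrocyte markers Mog, Mag and Mobp were not in the table used here, and the other 3 summed to 326 to 423. Of the 5 neuronal markers Snap25 and Syt1 were not in it, and the other 3 summed to 158 to 477. Of the 6 astrocyte markers 5 were in it, with sums of 65 to 129.

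Replicate number set much of the spread, and some numbers did not match by Xist, an RNA that silences an X chromosome in female cells. Xist was at 0 to 1 normalized counts in every library numbered 1 and at 2251 to 2555 in replicate 2 of vehicle, basal agonist and apical S1P. It was at 1382 in replicate 2 of apical agonist and at 552 in replicate 2 of basal S1P. Replicate 3 ran from 1063 to 1608 except in apical S1P, at 525, and replicate 4 from 173 to 244 except in apical S1P, at 1417. No apical S1P library therefore resembled replicate 4 of the other groups: its pericyte marker sums were 1067 to 3152, against 304 to 437 in those 4 libraries.

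The sterol genes were well expressed in vehicle-treated cells. Per kb of exon, Srebf2, the transcription factor of the pathway, was the highest at 213 ± 10.1 normalized counts (SD, n = 4), followed by its retention factor Insig1 at 202 ± 31.1. The next were Stard4, which carries cholesterol between membranes, at 184 ± 8.19, Lbr, a sterol reductase of the nuclear envelope, at 183 ± 4.45, and Hmgcs1 at 180 ± 14.2. Every Srebf2 library lay above every Stard4, Lbr and Hmgcs1 library per kb, and these 3 genes overlapped with each other. Insig1, at 170 to 229, overlapped with all 4. Of the 30 genes 23 lay above the middle of all tested genes per kb, and the median gene was at percentile 71.4.

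The lowest were Fdps, the farnesyl diphosphate synthase, at 7.37 ± 1.49, Tm7sf2, the second enzyme that reduces the same bond as Lbr, at 21.8 ± 5.51, and Idi1, an isomerase of isoprenoids, at 22.9 ± 1.10. The length used is the union of all annotated exons, 4208 bases for Fdps and 4403 for Tm7sf2. It lowers the level per kb where annotated exons are not used, and how much was not tested. Fdps lay at percentile 8.22, and 26.7% of its exonic bases are shared on the same strand with the annotated gene Gm43738, which was not in the table used here. The sources used here do not say how reads in shared exons were counted. Tm7sf2 shares 12.1% of its exonic bases with Vps51 on the same strand. Fdft1, the squalene synthase, shares 18.3% with the abundant Ctsb on the opposite strand, so its level is uncertain if the counting ignored strand. The library kit keeps strand, and no source used here gives the strand setting of the counting.

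Among exporters, Abca1 stood at 135 ± 15.9 and Abcg1 at 32.9 ± 12.4 normalized counts per kb (SD, n = 4). Soat1, which stores sterol as esters, was at 36.0 ± 1.09, Npc1, the lysosomal exporter of cholesterol, at 50.3 ± 3.07, and its soluble partner Npc2 at 116 ± 7.58. Nr1h2, the gene of LXR beta, was at 159 ± 5.10.

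**Figure D1:**
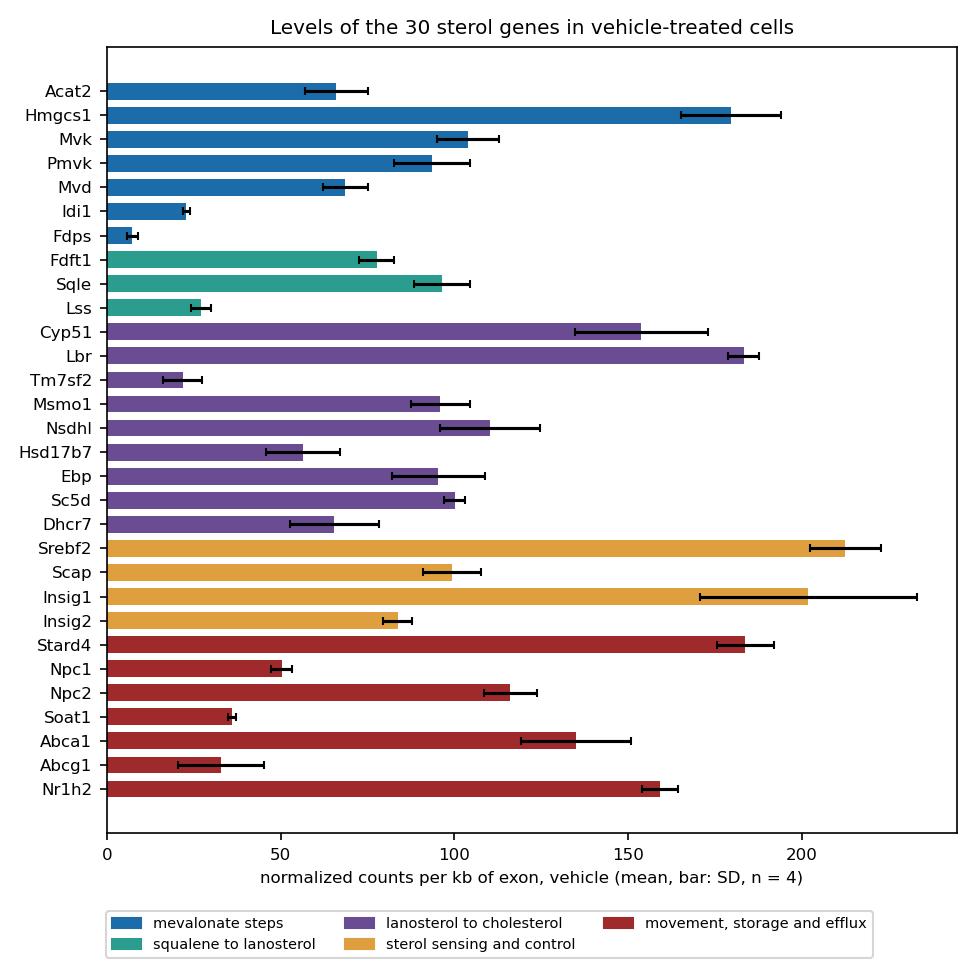
Levels of the 30 genes in vehicle, in normalized counts per kb of exon (x axis; bars are means and whiskers SD over 4 libraries), colored by role. Srebf2 is the highest at 213 and Fdps the lowest at 7.37.

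Most of the variation in these genes did not follow treatment. From the lowest to the highest of the 20 libraries they ranged from 1.19-fold (Lbr) to 2.49-fold (Abca1), and 18 of 30 stayed under 1.5-fold. On the log2 scale replicate number held a median of 36.8% of a gene's sum of squares and treatment group 12.5%, beside 42.9% and 13.9% over all tested genes. Number held more than treatment for 24 of the 30. Abcg1 had the largest share by number, 62.5%: it was at 167 to 203 in the 5 libraries numbered 1, and at 299 to 387 in those numbered 3. Abca1 had the largest share by treatment, 32.2%.

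The 19 enzymes of synthesis, from Acat2 to Dhcr7, were summed in each library as a plain description. In vehicle replicates 1 to 4 their summed normalized counts were 6312, 6285, 6968 and 7445, and with apical agonist they were 6187, 7772, 6328 and 7203. Basal agonist gave 6394, 6089, 6289 and 7301. The apical S1P libraries read 6165, 5885, 7163 and 6280, and the basal S1P libraries 6245, 7191, 6709 and 7824. Replicate 4 was the highest library of its group in vehicle, basal agonist and basal S1P, and replicate 2 in apical agonist. In apical S1P replicate 3 was the highest and replicate 4 was near the low libraries. All groups overlapped. The means were 6752 ± 559, 6872 ± 749, 6518 ± 537, 6373 ± 552 and 6992 ± 676 (SD, n = 4 each) in that order.

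**Figure D2:**
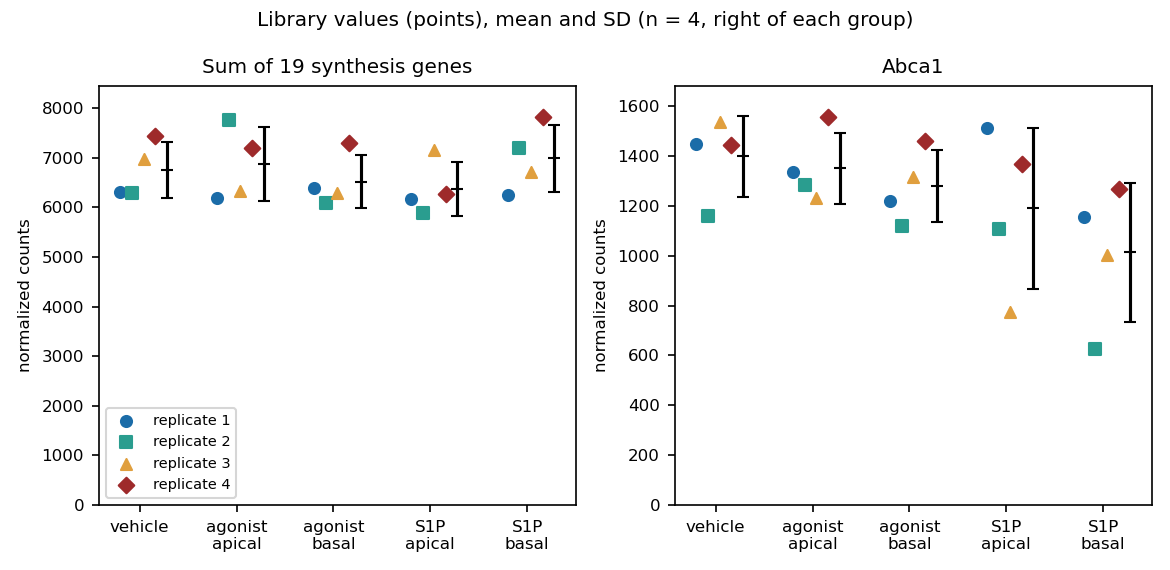
Summed level of the 19 synthesis genes (left) and level of Abca1 (right) in each library, in normalized counts (y axis, from 0); points are libraries marked by replicate number, and the bars at the right of each group are mean and SD (n = 4). The sum lies between 5885 and 7824 with all groups overlapping, and the lowest Abca1 levels are 626 in basal S1P replicate 2 and 775 in apical S1P replicate 3.

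The first comparison asks whether the side on which S1P was given changed these genes. Synthesis genes had mostly higher means with basal than with apical S1P, by small amounts and without any gene passing the test. Of the 30 genes 23 had a higher and 7 a lower mean with basal S1P, beside 50.2% of all genes higher, and the median log2 difference was 0.07, beside 0.00 over all tested genes. Higher and lower means in these counts are means of log2 values, and on the plain scale Stard4 went the other way, at 1037 normalized counts with basal and 1036 with apical S1P. In the comparisons of the agonist the plain means of Hmgcs1 (apical against vehicle), Sqle and Abcg1 (basal against vehicle) and Hsd17b7 (basal against apical) also differed in sign from the log2 means. The difference was called for 0 of 30 genes (limma, adjusted p under 0.05), against 0.0245% of all genes, and the smallest adjusted p was 0.999. At an unadjusted p under 0.05 there were 2, Fdft1 and Dhcr7, or 6.67%, beside 4.01% of all genes. The groups did not overlap in 1 gene, Fdps, beside 1.4% of all genes. An earlier analysis of these files had shown the direction of the list, so it is no independent support.

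All 7 genes of the mevalonate steps had higher means with basal S1P. The Fdps libraries read 33, 28, 30 and 30 normalized counts after basal S1P and 21, 26, 24 and 25 after apical S1P. Every basal library lay above every apical one, and in vehicle the gene was at 24, 32, 29 and 39, which overlaps both groups. The log2 difference of Fdps was 0.32 ± 0.22 (SE), a 1.25-fold higher level. Hmgcs1 read 769, 786, 799 and 977 with basal S1P and at 775, 739, 767 and 690 with apical S1P. The groups overlapped, and replicate 4 was the highest basal and the lowest apical library. Its log2 difference was 0.16 ± 0.10. The thiolase Acat2 had a difference of 0.08 ± 0.12 and the kinases Mvk and Pmvk of 0.09 ± 0.13 and 0.02 ± 0.11. The decarboxylase Mvd was at 0.14 ± 0.15 and Idi1 at 0.04 ± 0.15.

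The 3 genes from the making of squalene to lanosterol were also higher in mean. Fdft1 was at 323, 371, 339 and 399 with basal S1P and at 305, 307, 347 and 290 with apical S1P. The groups overlapped only through apical replicate 3. Its mean was 358 ± 33.8 against 312 ± 24.4 (SD, n = 4 each), a log2 difference of 0.20 ± 0.09 (SE, limma, adjusted p = 0.999). Sqle, the epoxidase that oxidizes squalene, was at 547, 542, 540 and 632 against 501, 495, 587 and 476. Here too apical replicate 3 lay within the basal range, and the difference was 0.14 ± 0.09. Lss, which closes the rings to lanosterol, was at 238, 228, 308 and 349 against 211, 214, 270 and 216. Its difference was 0.29 ± 0.17.

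Among the 9 genes that turn lanosterol into cholesterol 6 were higher in mean and 3 lower. Dhcr7, the last reductase of the pathway, was at 347, 423, 404 and 538 with basal S1P and at 333, 280, 381 and 349 with apical S1P. Its mean was 428 ± 80.1 against 336 ± 42.2 (SD, n = 4 each), a log2 difference of 0.34 ± 0.16 (SE, limma, adjusted p = 0.999). Basal replicate 1 lay within the apical range. Cyp51, the demethylase of lanosterol, was at 615, 692, 657 and 865 against 588, 564, 708 and 599, a difference of 0.20 ± 0.12. Msmo1 was at 556, 728, 598 and 694 against 523, 492, 653 and 610, a difference of 0.18 ± 0.11. For both, apical replicate 3 exceeded at least 2 basal libraries. Nsdhl and Hsd17b7, 2 dehydrogenases that act with Msmo1, had differences of 0.19 ± 0.14 and 0.17 ± 0.18, and the isomerase Ebp of 0.04 ± 0.15. The others were lower: Lbr at -0.01 ± 0.06, Tm7sf2 at -0.02 ± 0.25 and the desaturase Sc5d at -0.01 ± 0.09.

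The 4 genes of sterol sensing had higher means with basal S1P and differences within about 1 SE for all but Insig1. Srebf2 was at 0.07 ± 0.07, Scap at 0.02 ± 0.07, Insig1 at 0.15 ± 0.12 and Insig2 at 0.06 ± 0.09. Mean Srebf2 was 1583 ± 124 normalized counts with basal and 1506 ± 49.9 with apical S1P (SD, n = 4 each).

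Of the 7 genes of movement, storage and efflux 3 were higher and 4 lower. Abca1 had a difference of -0.24 ± 0.20 on the log2 scale. Its basal S1P libraries read 1155, 626, 1003 and 1268 normalized counts and its apical ones 1511, 1107, 775 and 1366. A single library of each side was far below the rest, and the groups overlapped. The difference of Abca1 depended on them: it was -0.02 without basal replicate 2 and -0.43 without apical replicate 3. Abcg1 was at 0.05 ± 0.29 and Npc1 at 0.11 ± 0.09. Stard4 was at 0.00 ± 0.09, Npc2 at -0.04 ± 0.08, Soat1 at -0.05 ± 0.07 and Nr1h2 at 0.01 ± 0.06.

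**Figure D3:**
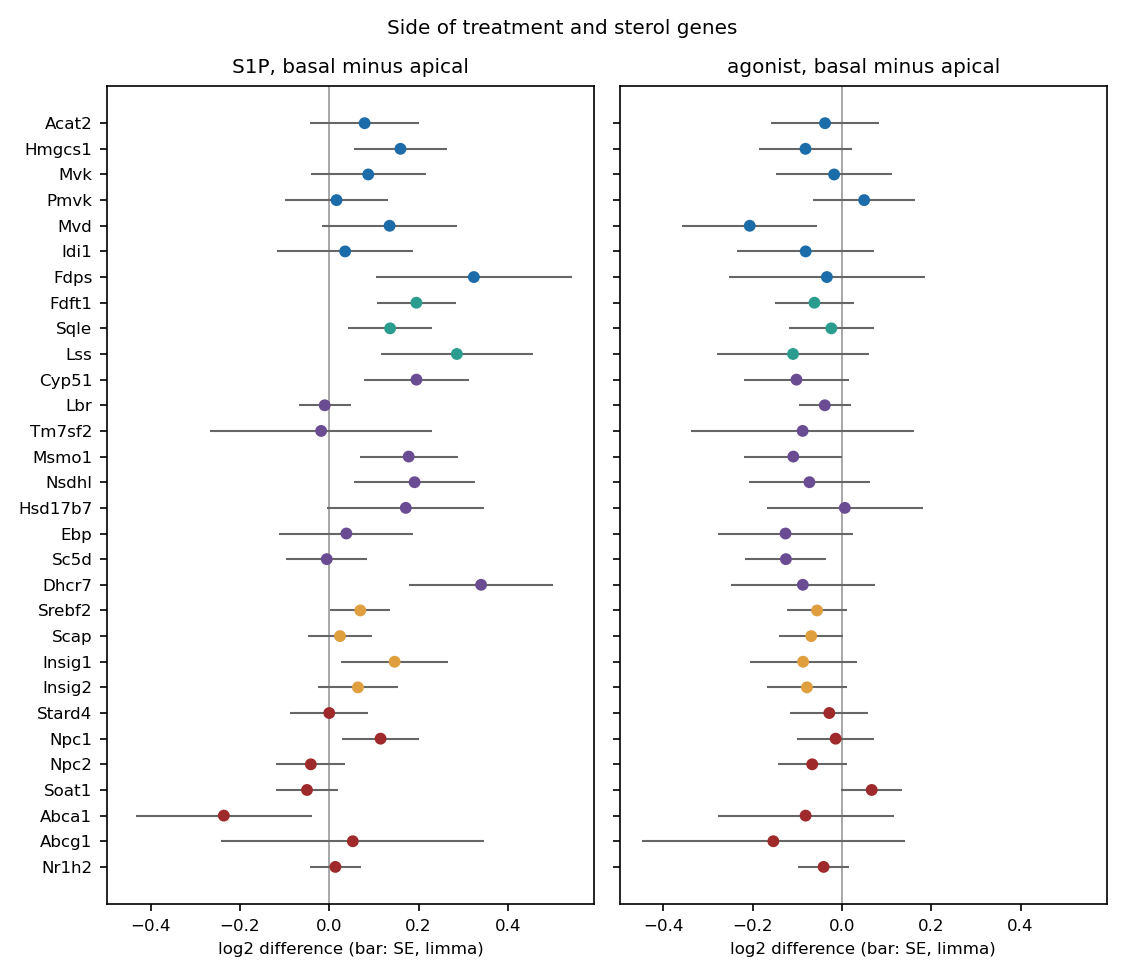
Log2 difference of each gene between basal and apical treatment (x axis; points are the fitted difference and bars its SE), for S1P at 50 nM on the left and the agonist at 500 nM on the right, colored by role as in the plot of levels. With S1P 23 of 30 points lie above 0 and with the agonist 3 of 30, and 0 passed the test in either panel.

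The difference by side was not alike across libraries when apical and basal S1P libraries were set side by side by their Xist level. These pairs were formed after the data were seen, and no label names them. Apical and basal S1P replicates 1 both had Xist at 0, and their synthesis sums were 6165 and 6245, with 10 of 19 synthesis genes higher in the basal library. Apical replicate 3 and basal replicate 2, with Xist at 525 and 552, had sums of 7163 and 7191, and again 10 of 19 were higher. Apical replicate 4 and basal replicate 3, with Xist at 1417 and 1432, had 6280 and 6709, and 13 of 19 were higher. What remained were apical replicate 2 and basal replicate 4, with Xist at 2555 and 225, sums of 5885 and 7824, and 18 of 19 genes higher. The first 3 pairs also had like deviations over all tested genes, at correlations of 0.727, 0.662 and 0.633 across genes, which are not independent replicates, against 0.0251 in the last pair. Apical replicate 2 and basal replicate 1, with unlike Xist at 2555 and 0, were correlated nearly as highly, at 0.596. Pericyte markers differed between these groups as well: 0 of 9 were higher in mean with basal S1P, with a median log2 difference of -0.80. The same held for 0 of 4 fibroblast markers, with a median of -0.77. Of the smooth muscle markers 2 of 8 were higher, with a median of -0.25. Of these 3 lists 0 were called, beside 0.0245% of all genes. At an unadjusted p under 0.05 (limma) there was 1 smooth muscle marker and 0 of the other lists, beside 4.01% of all genes. Pericyte marker sums, apical then basal, were 3152 and 2586, 2015 and 1834, and 1067 and 1209 in the first 3 pairs. In the last pair they were 2523 and 337. The part of these markers in the sterol genes was not tested.

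Leaving out libraries moved the count of genes whose groups did not overlap. It was 4 of 30 without basal replicate 1, 2 of 30 without apical replicate 1 and 6 of 30 without apical replicate 3. All genes stood at 5.1%, 2.16% and 3.25% in these settings. Without apical replicates 3 and 4 and basal replicate 2 it was 9 of 30, all higher with basal S1P, where 28.6% of all genes did not overlap in either direction and 14.7% were higher. The median log2 difference over the 30 genes was 0.15 in that setting, 0.15 without basal replicate 1 or without apical replicate 3, 0.05 without apical replicate 2 and 0.04 without basal replicate 2. None of the 30 genes was called in any of these settings. For 28 of the 30, all but Fdps and Fdft1, leaving out a single library moved the log2 difference by over 1.5 times or changed its sign. Without basal replicate 4 the difference was 0.22 for Dhcr7, 0.17 for Lss, 0.09 for Cyp51, and 0.08 for Hmgcs1 and for Sqle. Msmo1 was at 0.11 without apical replicate 2 and at 0.12 without basal replicate 2.

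**Figure D4:**
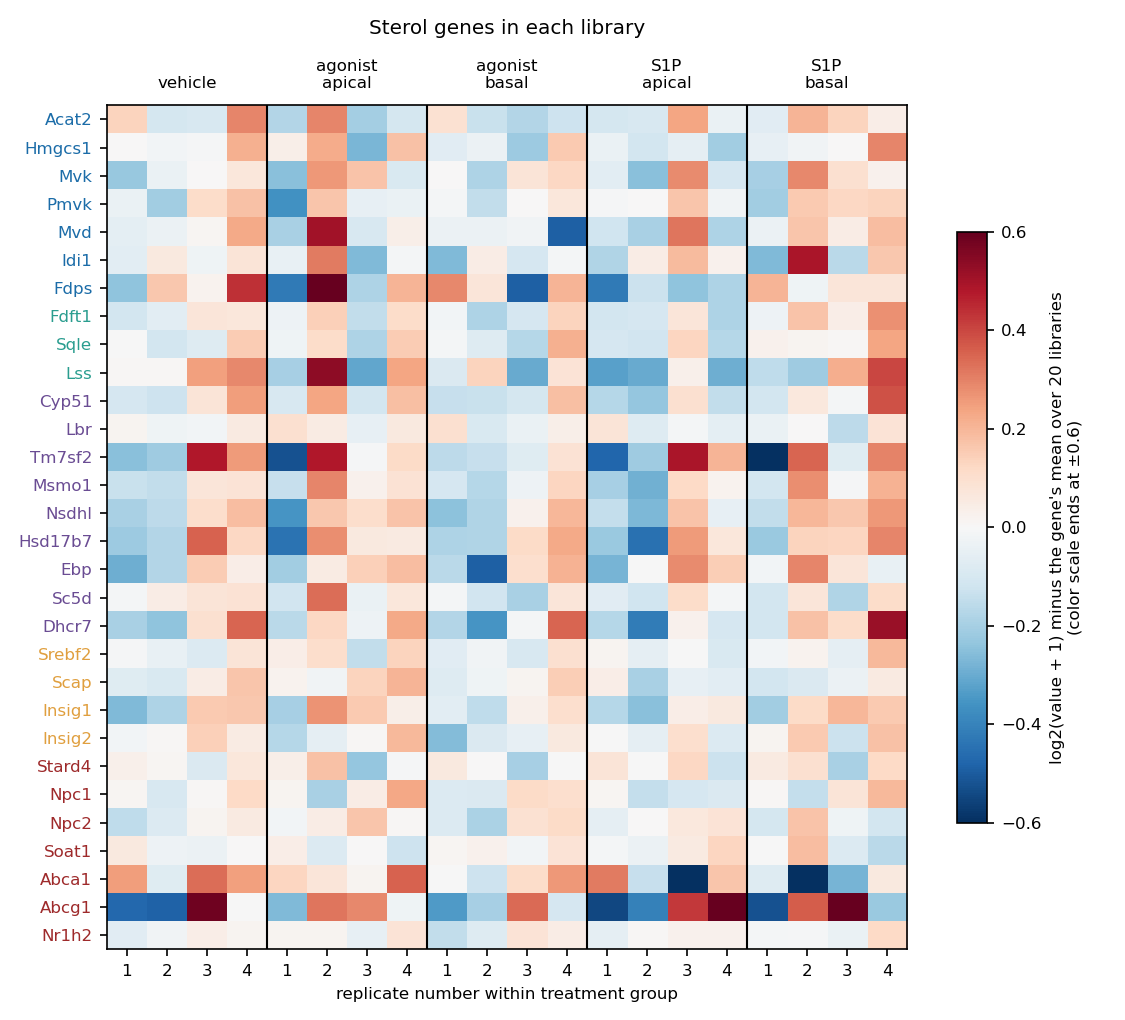
Level of each gene in each library as log2(value + 1) minus the gene's mean over 20 libraries (color, blue below and red above, scale ending at 0.6 either way); columns are libraries by group and replicate number, rows are genes colored by role. Vehicle replicate 4, apical agonist replicate 2, basal agonist replicate 4, apical S1P replicate 3 and basal S1P replicates 2 and 4 are red for most synthesis genes (18, 19, 16, 16, 16 and 18 of 19 above the gene's median). Apical agonist replicate 4, basal S1P replicate 3 and vehicle replicate 3 had 14, 14 and 13 of 19 above it. These counts use the gene's median, while the color is centered on its mean. Abca1 is darkest blue in apical S1P replicate 3 and basal S1P replicate 2.

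With the agonist, the side went the other way in mean. Basal against apical agonist had 3 of 30 genes higher and 27 lower, beside 50.3% of all genes higher, with a median log2 difference of -0.07. The test called 0 of 30 (limma), with 0% of all genes called and 0 of 30 at an unadjusted p under 0.05, beside 0.498% of all genes. As the model takes no account of replicate number, these counts do not show that nothing changed. The smallest p belonged to Sc5d at -0.13 ± 0.09 (SE), Mvd at -0.21 ± 0.15 and Msmo1 at -0.11 ± 0.11. Mvd was at 121, 121, 122 and 88 with basal and at 108, 176, 116 and 127 with apical agonist, so 1 low and 1 high library stand behind its difference. Apical agonist replicate 2, whose Xist level did not match its number, was the highest library of its group for 14 of the 19 synthesis genes, and without it and the 3 S1P libraries of that kind the median over the 30 was -0.03. In that setting Sc5d was at -0.03, Mvd at -0.06 and Msmo1 at -0.03. Of the markers, 3 of 9 for pericytes were higher with basal than with apical agonist (median log2 difference -0.20), as were 1 of 8 for smooth muscle (-0.21) and 2 of 4 for fibroblasts (-0.01), and their part was not tested. The difference between the side effects of S1P and of the agonist, a contrast chosen after the data were seen, was above 0 in 27 of 30 genes, beside 50.5% of all genes, with a median of 0.14. It was called for 0 of 30 genes (limma), against 0% of all genes, and for 0 of 30 at an unadjusted p under 0.05, beside 1.49% of all. Fdft1 (0.26 ± 0.13), Dhcr7 (0.43 ± 0.23) and Msmo1 (0.29 ± 0.16) had the smallest p. The sides were thus not shown to act differently with the 2 agents, which were given at different doses.

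Against vehicle, basal S1P went with a lower mean of Abca1, which did not pass the test. Mean Abca1 was 1013 ± 280 normalized counts after basal S1P against 1398 ± 164 in vehicle (SD, n = 4 each), a log2 difference of -0.50 ± 0.20 (SE, limma, adjusted p = 0.756). The vehicle libraries were at 1448, 1160, 1538 and 1445, and 3 of 4 basal S1P libraries lay below all of them. Basal replicate 1 did so narrowly, at 1155 against 1160. The fourth basal library, replicate 4 at 1268, overlapped with vehicle replicate 2. Without basal replicate 2, the low library at 626, the difference of Abca1 was -0.29. That library had Xist at 552, and the vehicle libraries had it at 1, 2251, 1063 and 190. The part of this mismatch in Abca1 was not tested. Of the 30 genes 22 were higher and 8 lower in mean, beside 50% of all genes higher, with a median of 0.03, and 0 were called, against 0.0245% of all genes. Abca1 was the only one at an unadjusted p under 0.05, or 3.33%, beside 5.22% of all genes. Fdft1 (0.12 ± 0.09) and Msmo1 (0.12 ± 0.11) had the next smallest p. Fdft1 was at 0.07 without basal replicate 4, and Msmo1 at 0.06 without basal replicate 2 and at 0.19 without basal replicate 1. With basal S1P 2 of 9 pericyte markers were higher than in vehicle (median log2 difference -0.37), as were 6 of 8 smooth muscle markers (0.08) and 1 of 4 fibroblast markers (-0.34). Their part in these differences was not tested.

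Abca1 was also lower in mean with apical S1P, at 1190 ± 323 (SD, n = 4), a log2 difference from vehicle of -0.27 ± 0.20, and of -0.08 without apical replicate 3. Apical replicate 3, at 775 normalized counts of Abca1, had Xist at 525, a level that no vehicle library had. With apical and basal agonist Abca1 was at 1351 ± 143 and 1278 ± 145. The order of the means was vehicle, apical agonist, basal agonist, apical S1P and basal S1P, and neighbours in this order overlapped. These comparisons share the vehicle libraries.

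With apical S1P against vehicle, 21 of 30 genes were lower and 9 higher, beside 49.8% of all genes higher, with a median of -0.06. None of the 30 was called (0 of 30, limma), with 0% of all genes called, and 1 had an unadjusted p under 0.05, beside 0.996% of all genes. That gene was Lss, at 228 ± 28.2 against 292 ± 30.5 normalized counts (SD, n = 4 each), a log2 difference of -0.36 ± 0.17 (SE, limma, adjusted p = 1.00). Its vehicle libraries were at 266, 266, 314 and 323, and only apical replicate 3, at 270, reached into them. Fdps was at -0.34 ± 0.22. Hmgcs1, at -0.15 ± 0.10, was the 1 gene whose groups did not overlap, with vehicle at 788 to 923 and apical S1P at 690 to 775, beside 1.32% of all genes. Without vehicle replicate 4 the difference was -0.09 for Hmgcs1 and -0.23 for Fdps. Of the pericyte markers 8 of 9 were higher with apical S1P than in vehicle (median log2 difference 0.55), as were 7 of 8 smooth muscle markers (0.34) and 3 of 4 fibroblast markers (0.43). Their part was not tested.

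With the agonist the means lay close to vehicle. With apical agonist 18 of 30 were higher and 12 lower, beside 48.5% of all genes higher, with a median of 0.02. With basal agonist 7 were higher and 23 lower, beside 52.5% of all genes higher, with a median of -0.03. Both medians changed sign in some of the alternatives. In both 0 of 30 were called (limma), with 0% of all genes called, and 0 of 30 had an unadjusted p under 0.05, beside 1.09% and 0.31% of all genes. The model takes no account of replicate number, so these counts do not show that nothing changed. On the apical side the smallest p belonged to Npc2 (0.09 ± 0.08), Scap (0.07 ± 0.07) and Msmo1 (0.10 ± 0.11). On the basal side it belonged to Insig2 (-0.13 ± 0.09), Sc5d (-0.11 ± 0.09) and Mvd (-0.18 ± 0.15). Leaving out single libraries moved all 6: Npc2 was at 0.05 without apical agonist replicate 3 or vehicle replicate 1, Scap at 0.03 without apical agonist replicate 4, and Msmo1 at 0.02 without apical agonist replicate 2. Insig2 was at -0.07 without basal agonist replicate 1, Sc5d at -0.07 without replicate 3 and Mvd at -0.07 without replicate 4 of that group. With apical agonist 5 of 9 pericyte markers were higher than in vehicle (median log2 difference 0.00), 7 of 8 smooth muscle markers (0.08) and 0 of 4 fibroblast markers (-0.37). With basal agonist these were 1 of 9 (-0.25), 4 of 8 (-0.03) and 0 of 4 (-0.26). Their part was not tested.

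Set against the 3 barrier-tightening treatments together, basal S1P had 24 of 30 genes higher and 6 lower, beside 51.2% of all genes higher, with a median of 0.08. The call was made for 0 of 30 (limma), against 0.049% of all genes. Abca1 had a log2 difference of -0.36 ± 0.16 (SE, limma, adjusted p = 0.855), the 1 gene at an unadjusted p under 0.05, beside 5.63% of all genes. Fdft1 was at 0.15 ± 0.07 and Dhcr7 at 0.23 ± 0.13. Without basal S1P replicate 2 Abca1 was at -0.14, and without basal S1P replicate 4 Fdft1 was at 0.09 and Dhcr7 at 0.12. Of the markers 0 of 9 for pericytes were higher with basal S1P (median log2 difference -0.33), as were 2 of 8 for smooth muscle (-0.02) and 0 of 4 for fibroblasts (-0.16), and their part was not tested. Across the 5 groups, by mean normalized counts, basal S1P had the highest mean in 14 of the 19 synthesis genes and apical S1P the lowest in 10. The same shares over all tested genes were not taken. The 19 genes are not independent of each other: in basal S1P replicate 4 alone 18 of them lay above the gene's median. Among these 19 the ratio of the highest to the lowest group mean was largest in Fdps, at 1.29. There vehicle was the highest group, at 31.0 normalized counts, and apical S1P the lowest, at 24.0.

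Other genes of lipid synthesis were read from lists that are not members. Of 29 tested genes of sterol uptake, processing and transport the mean was higher with basal S1P in 17 and with apical S1P in 12. Their median log2 difference was 0.03 and 0 were called, beside 50.2% of all genes higher and 0.0245% called. The differences ran from -1.52 to 0.52, so the largest was downward. At an unadjusted p under 0.05 (limma) there were 2 of the 29, beside 4.01% of all genes. Ch25h, which makes the oxysterol 25-hydroxycholesterol, was at 0.52 ± 0.25 (SE), from 237 to 330 normalized counts (adjusted p = 0.999, limma). Of 14 genes of fatty acid synthesis 9 were higher and 5 lower, with a median of 0.13, and 0 were called. The smallest p there belonged to the desaturase Fads1 (0.14 ± 0.07), the elongase Elovl6 (0.22 ± 0.11) and the carboxylase Acaca (0.17 ± 0.10). With apical S1P against vehicle 11 of these 14 were lower, with a median of -0.09, and with basal S1P against vehicle 9 were higher, with a median of 0.03. In both 0 were called, beside 49.8% and 50% of all genes higher and 0% and 0.0245% called.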

How the data were processed

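Stranded mRNA libraries of 20 wild-type samples were sequenced. The submitters' processing notes name Trimmomatic 0.38, STAR 2.7.3a, featureCounts 1.6.5, DESeq2 1.26.0 and mm10, with no role or order. The deposited values are a signal per gene, which the values show to be counts scaled library by library and rounded to whole numbers, here called normalized counts. Steps in the low values were clear in 13 libraries and gave 3.93 to 5.54 M reads on genes; rounding kept the reads from being recovered, so no count model and no counting interval was used. Log2(value + 1) of the 12249 genes with a mean of at least 10 entered 1 model of 5 group means over the 20 libraries in limma 3.58.1 under R 4.3.3, with a trended prior variance and Benjamini-Hochberg adjustment over all tested genes. On this log2(value + 1) scale the fold changes of low genes come out too small. The script was tested on simulated data. Deviations of libraries from their group means were correlated at a median of 0.61 for 40 same-numbered pairs and of -0.26 for other pairs. Same-numbered pairs were all above 0.1 for vehicle and both agonist groups (lowest correlation 0.42) and for vehicle and apical S1P (lowest 0.38). They were not all above 0.1 for basal S1P with vehicle (lowest 0.03, highest 0.81) or with apical S1P (lowest -0.34, highest 0.73). Number did not always mark the most alike libraries. Apical S1P replicate 4 was correlated at 0.70 with vehicle replicate 3 and at 0.40 with vehicle replicate 4. The model had no block for number, which was an alternative. Where same-numbered libraries were alike, their shared spread stayed in the error, which makes the p-values large. At an unadjusted p under 0.05 (limma) stood 1.09% and 0.31% of all genes for apical and basal agonist against vehicle. The share was 0.498% between the agonist sides and 0.996% for apical S1P against vehicle. With the block these shares were 3.5%, 0.988%, 1.49% and 4.44%. A count of 0 called there does not show that nothing changed. No 2 libraries were identical.

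Exonic lengths come from GENCODE M21, whose coordinates were those of the table for 30 of 30 members. Each length is the union of all annotated exons of the gene. The members, lists and comparisons were chosen with earlier results of these data known. By the rule for naming, all members were named for apical against basal S1P, 3 by smallest p elsewhere, and library values were given for 8; Abca1, Mvd and the promoters other than that of Hmgcs1 were chosen after their values were seen. Of the list of other sterol genes, some are not reported here by name.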

Additional observations from a re-analysis of the deposited data

Results flagged for a closer look

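In 10 of 150 sets of 4 libraries (30 genes in 5 groups), or 6.67%, a single library stood far from the other 3; chance gives about 1 in 20. Replicate 4 was the high library for Hmgcs1 in vehicle (923 normalized counts, others 788 to 797) and with basal S1P (977, others 769 to 799), for Sqle with basal S1P (632, others 540 to 547) and for Cyp51 with basal agonist (752, others 603 to 616). It was the low library for Mvd with basal agonist (88, others 121 to 122). Replicate 3 was high with apical S1P for Lss (270, others 211 to 216), Mvd (155, others 108 to 114) and Pmvk (178, others 156 to 159). Replicate 1 was low for Pmvk with basal S1P (137, others 173 to 177) and for Nsdhl with apical agonist (247, others 340 to 355).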

How the results depend on the processing

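Of the 30 genes 0 were called under any of the 21 alternatives in each pairwise comparison or the 29 in the others: other pseudocounts, minimum means, scalings and prior variances, library weights, the replicate block, fits on the compared groups alone, and left-out libraries. Fdps was not tested at a minimum mean of 50. The replicate block changed no call among the 30 and left the median for basal against apical S1P at 0.07. Over all genes it left calls at 0 in the comparisons of the agonist and of apical S1P with vehicle. It moved them from 3 to 83 for basal against apical S1P and from 3 to 47 for basal S1P against vehicle. Calls for basal S1P went from 6 to 137 against the 3 other treatments, and for the difference between the side effects from 0 to 2. In basal S1P same-numbered correlations ran from 0.03 to 0.81 with vehicle and from -0.34 to 0.73 with apical S1P. Numbers thus joined like libraries in some blocks and unlike ones in others. The smallest adjusted p (limma) among the 30 with the block was 0.149, for Dhcr7 in basal against apical S1P. The median ranged from 0.04 to 0.15 for basal against apical S1P, from 0.003 to 0.10 for basal S1P against vehicle, from -0.11 to -0.007 for apical S1P against vehicle, from -0.14 to -0.03 for basal against apical agonist, from -0.02 to 0.12 for apical agonist against vehicle and from -0.09 to 0.01 for basal agonist against vehicle. The difference between the side effects reached 0.26 with library weights. Genes that did not overlap between the sides of S1P numbered 9 without the libraries of unmatched Xist, and 1 to 6 with each library left out. Small differences between the sides of S1P changed sign, and the cause was not tested. With library weights the values were Tm7sf2 at 0.17, Sc5d at 0.040 and, for apical agonist against vehicle, Abca1 at 0.075. Without the libraries of unmatched Xist the values were Idi1 at -0.020, Tm7sf2 at 0.21 and Sc5d at 0.033. Without apical replicate 3 and basal replicate 2, chosen after seeing the data, the values were Idi1 at -0.051, Tm7sf2 at 0.023, Sc5d at 0.00497 and Stard4 at 0.010. Without the libraries numbered 4, also chosen after seeing the data, the values were Pmvk at -0.030, Srebf2 at -0.0023, Scap at -0.00812, Npc2 at 0.0085, Soat1 at 0.031 and Nr1h2 at -0.012. With each library left out in turn the ranges were Tm7sf2 from -0.18 to 0.19, Sc5d from -0.051 to 0.045, Pmvk from -0.019 to 0.10, Idi1 from -0.11 to 0.14, Ebp from -0.067 to 0.12, Abcg1 from -0.14 to 0.25, Lbr from -0.047 to 0.033, Stard4 from -0.049 to 0.071, Scap from -0.019 to 0.060 and Nr1h2 from -0.021 to 0.032. Abca1 ranged from -0.13 to 0.0021 for apical agonist against vehicle and from -0.35 to 0.060 for the difference between the side effects. The depth of the reads is known only as an estimate, which limits what can be said of low genes such as Fdps.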
